A study of Mus musculus with 18 samples.

Results

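The knockout of Ptbp1 was compared between consecutive steps of red cell formation in mouse bone marrow: for every gene, the change from wild-type to knockout in preCFU-E cells minus the same change in preMegE cells. The comparison used 12 of the 18 RNA-sequencing libraries of the series. They form 4 groups of 3 libraries, namely preMegE wt, preMegE KO, preCFU-E wt and preCFU-E KO, and the 6 stem cell (HSC) libraries did not enter the fit. All mice were C57BL/6. The wt animals carried Ptbp1 fl/fl, an allele prepared for deletion by Cre recombinase but still intact, and the KO animals lacked Ptbp1. The sources used here do not give the Cre driver, the time of deletion, the exons removed or the age of the animals. Cells were sorted by flow cytometry: both populations as c-kit+ and CD150+ and as negative for lineage markers (Lin-), Sca-1, CD41 and FcgRII/III, with preMegE CD105- and preCFU-E CD105+. The series calls the 3 libraries of a group biological replicates, without stating whether each came from a single mouse.

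PreMegE cells can still give rise to megakaryocytes and to red cells, whereas preCFU-E cells are committed to the red cell lineage. PTBP1, the polypyrimidine tract-binding protein, binds pyrimidine-rich stretches of pre-mRNA and mostly keeps nearby exons out of the mature transcript. It holds down its paralog PTBP2 in this way, since a PTBP2 transcript that skips a short exon carries a premature stop codon and is degraded by nonsense-mediated decay. PTBP1 acts on the matching exon of its own transcript as well. PTBP3 is the third member of the family and is prominent in blood cells.

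The 12 libraries held 16412057 to 29226287 estimated reads (median 23301820). Levels are given as CPM, the reads of a gene scaled to a common library size. In a principal component analysis the populations separated on the first axis (81.5% of the variance), with preMegE between -53.8 and -35.4 and preCFU-E between 36.8 and 53.3. On the second axis, with 4.63%, preMegE KO replicate 1 lay at 32.0 and the other 11 libraries between -13.7 and 4.83. The biological coefficient of variation was 0.245 within preMegE and 0.134 within preCFU-E. The share of mitochondrial ribosomal RNA was 12.7% to 28.8%, with both extremes in preCFU-E KO (replicates 3 and 1). The gates read surface protein and CPM reads RNA, so the measures need not match. Of the genes of the sorting markers, Itga2b (CD41) was present at 33.3 to 82.8 CPM in preMegE, which were sorted as lacking CD41. In preCFU-E it was at 1.36 to 2.48 CPM. Eng (CD105) was also present in preMegE, sorted as CD105-, at 77.1 to 119 CPM, which overlapped the 108 to 157 CPM in preCFU-E. Fcgr2b, of the FcgRII/III gate, was at 4.83 to 9.01 CPM in preMegE. Slamf1 (CD150) lay at 32.7 to 41.8 CPM in preMegE and 4.62 to 11.1 in preCFU-E, and Ly6a (Sca-1) at no more than 2.81 CPM in any library.

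Ptbp2 was the gene whose response to the knockout differed between the populations. Ptbp2 (ENSMUSG00000028134, GRCm38 chromosome 3, 119718742 to 119784466) stood at 17.1, 17.0 and 13.6 CPM in the preMegE wt libraries and at 69.2, 79.4 and 75.1 CPM in preMegE KO. In preCFU-E it stood at 9.76, 9.33 and 6.70 CPM in wt and at 113, 123 and 122 CPM in KO. None of the 4 groups overlapped with another, and the order of the populations was turned around: in wt preCFU-E was below preMegE, and in KO it was above. The means were 15.9 ± 1.99 and 74.6 ± 5.15 CPM in preMegE and 8.60 ± 1.66 and 120 ± 5.72 CPM in preCFU-E (SD, n = 3), a 4.69-fold and a 13.9-fold rise. On the log2 scale Ptbp2 rose by 2.23 (SE 0.14) in preMegE and by 3.78 (SE 0.15) in preCFU-E, with edgeR adjusted p of 1.66e-08 and 3.41e-12. The difference of these effects was 1.56 (SE 0.19, 95% interval 1.15 to 1.96), with an edgeR quasi-likelihood adjusted p of 0.0021 over 17159 genes tested. Leaving out each library in turn gave 1.42 to 1.66. The call was lost when the 6 HSC libraries joined the fit (log2 difference 1.56, edgeR adjusted p 0.0576) and when counts were rescaled for transcript length (1.52, edgeR adjusted p 0.602).

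**Figure D1:**
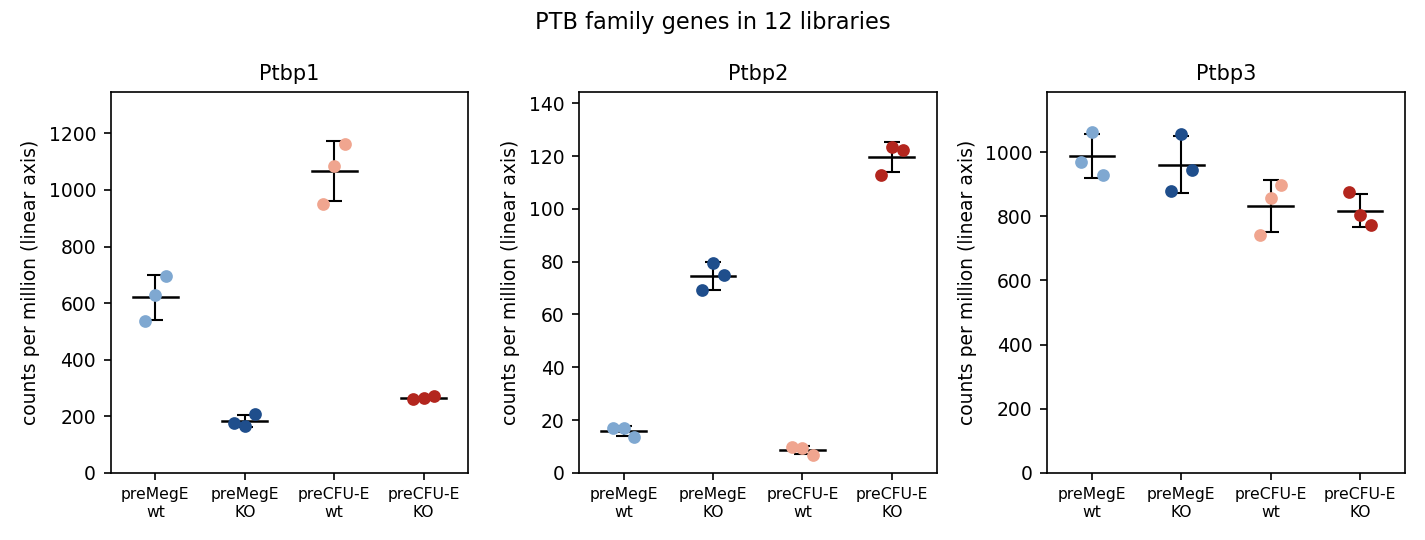
CPM (linear axis, from 0) of Ptbp1, Ptbp2 and Ptbp3 in each of the 12 libraries; points are libraries, bars the group mean ± SD (n = 3). Ptbp2 runs from 6.70 to 9.76 in preCFU-E wt to 113 to 123 in preCFU-E KO, a wider step than in preMegE, while Ptbp1 falls in both populations and the Ptbp3 groups overlap.

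CPM counts reads, so a longer transcript gives more of it. TPM, which is corrected for transcript length, put Ptbp2 at 17.6 ± 1.09 in preMegE wt, 54.0 ± 5.31 in preMegE KO, 7.65 ± 2.67 in preCFU-E wt and 57.5 ± 3.07 in preCFU-E KO (SD, n = 3). By TPM the KO groups lay within their spread of each other and only the wt groups were apart. Length is not the only gap between the measures, since CPM rests on library sizes scaled by TMM and TPM does not. Ptbp3 also read lower in preCFU-E KO by TPM, at 141 ± 9.63 against 217 ± 25.7 in preMegE KO (SD, n = 3). By CPM its ratio between these groups was 0.852. What length and scaling contribute was not tested. The transcripts that carry Ptbp2 differed as well. The 3 with the highest TPM in preCFU-E KO, of 465, 3364 and 3777 bases and all annotated as protein-coding, were grouped after their values were seen, and together made up 46.6%, 67.2% and 66.3% of Ptbp2 TPM in preMegE KO and 90.8%, 79.9% and 92.8% in preCFU-E KO. In wt libraries of either population they made up 13.8% to 22.1%. The transcript of 3364 bases went from 0.64 ± 0.43 to 11.3 ± 4.44 TPM in preMegE and from 0.36 ± 0.35 to 16.02 ± 2.62 TPM in preCFU-E (SD, n = 3). A transcript of 389 bases, also annotated as protein-coding, was at 4.28 to 8.02 TPM in preMegE wt and 0 to 3.41 TPM in preCFU-E wt. It was at 12.7, 7.98 and 4.34 TPM in preMegE KO and at 0, 1.24 and 0 TPM in preCFU-E KO, without overlap. These shares rest on the division of reads among annotated transcripts and were not tested.

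The exon through which PTBP1 is known to control Ptbp2 is 34 bases long and lies in the coding sequence at chr3:119724612-119724645 on the minus strand of GRCm38. Its counterpart in Ptbp1, also 34 bases, lies at chr10:79862014-79862047 on the plus strand. Both are shown with 12 bases of the neighbouring exons, the cassette exon in capitals, because their inclusion is the readout closest to PTBP1 itself. Both lengths leave a remainder of 1 on division by 3, so that skipping shifts the reading frame, and 26 of the 34 positions (76.5%) hold the same base.
Ptbp1 exon: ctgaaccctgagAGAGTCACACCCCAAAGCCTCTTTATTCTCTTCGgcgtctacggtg
Ptbp2 exon: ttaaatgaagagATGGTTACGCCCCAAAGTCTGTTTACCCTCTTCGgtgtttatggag

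Percent spliced in, the TPM of transcripts that contain an exon over that of transcripts that contain or skip it, was 68.1, 73.3 and 59.5 for the Ptbp2 exon in preMegE wt and 82.8, 97.1 and 93.6 in preMegE KO. In preCFU-E it was 75.0, 68.5 and 54.9 in wt and 93.3, 100 and 98.03 in KO. The KO libraries lay above the wt libraries in both populations, and the KO groups of the populations overlapped. The transcripts that contain this exon are those grouped above, so their share of Ptbp2 TPM and this inclusion are not separate observations. The change was 24.2 percentage points in preMegE (limma adjusted p 0.232) and 31.0 points in preCFU-E (limma adjusted p 0.0298), and the difference of 6.74 points was not called (limma adjusted p 0.927). With 1.69 to 5.16 TPM behind each wt value, the percentages of wt libraries rest on little signal. The Ptbp1 exon went from 73.99 to 76.8 percent in preMegE wt to 98.6 to 99.9 in preMegE KO, and from 76.7 to 78.3 in preCFU-E wt to 99.3 to 100 in preCFU-E KO. The difference of these changes was -1.65 points (limma adjusted p 0.964).

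Ptbp1 itself (ENSMUSG00000006498, chromosome 10, 79854427 to 79864771) was at 537, 627 and 696 CPM in preMegE wt and at 175, 166 and 208 CPM in preMegE KO. PreCFU-E had 951, 1086 and 1162 CPM in wt and 260, 263 and 270 CPM in KO. All KO libraries lay below all wt libraries of their population, and preCFU-E held more Ptbp1 reads than preMegE in both genotypes, 1.72-fold in wt and 1.45-fold in KO. By CPM the KO kept 0.295 of the wt level in preMegE and 0.248 in preCFU-E. In TPM, the preMegE means of Ptbp1 were 477 ± 137 for wt and 89 ± 9.53 for KO (SD, n = 3). The preCFU-E means were 716 ± 69.6 TPM for wt and 92.7 ± 10.5 TPM for KO, so that by TPM the KO libraries of the populations overlapped. TPM, unlike CPM, was not scaled by TMM. Ptbp1 fell by 1.76 on the log2 scale in preMegE and by 2.01 in preCFU-E, and the difference of -0.25 (SE 0.17, 95% interval -0.61 to 0.11) was not called (edgeR adjusted p 0.88). Reads of a deleted gene can also come from the exons left in place, so the CPM does not give the level of intact PTBP1. Ptbp3 ran from 881 to 1064 CPM in preMegE and from 743 to 898 CPM in preCFU-E, wt and KO overlapping in both. Its difference of 0.02 (SE 0.16, 95% interval -0.32 to 0.35) was not called and changed sign under some settings.

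Across all genes, few differences between the populations passed the test. Ptbp2 was the only gene called at an edgeR adjusted p below 0.05, 0.00583% of 17159 tested, and the next adjusted p was 0.519. At an unadjusted p below 0.05, 971 genes (5.66%) passed, of which 525 (3.06% of the genes tested) had a higher and 446 (2.6%) a lower effect in preCFU-E. A block for the replicate number within genotype, which pairs the populations, called Ptbp2 alone as well, and 1486 genes passed the unadjusted 0.05. The median difference over all genes was 0.02. For 9742 genes with a mean log2 CPM of 2 or more, the 95% interval of the difference reached 0.44 to either side in the median, and for 85.2% of them it lay within 1 on the log2 scale. DESeq2 called 8 genes, among them Ptbp2, Podxl, Plxdc2 and Thbd, and without the filter on low counts edgeR called 89.

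Many of the genes called in 1 population were called in the other. In preMegE, 64 genes were called between KO and wt (0.373% of 17159), 24 higher and 40 lower in KO, and in preCFU-E 78 genes (0.455%), 41 higher and 37 lower. Of these, 32 genes were called in both, 50% of the preMegE list and 41.0% of the preCFU-E list, all 32 in the same direction and 16 each way. In 21 of the 32 the effect was larger in preCFU-E and in 11 it was smaller. The share over all genes is not given, so this count has no background, and it was not tested. The median size was 1.33 in preMegE and 1.48 in preCFU-E on the log2 scale. None of the 78 genes called in 1 population alone was called in the difference, and for 17 of the 32 preMegE genes and 21 of the 46 preCFU-E genes the 95% interval of the difference held 0. Of all 110 genes called in 1 or both populations, the interval left out 0 for 48, without adjustment and in genes chosen from the same libraries. A call in 1 population and its absence in the other therefore did not by itself show that the response differed.

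**Figure D2:**
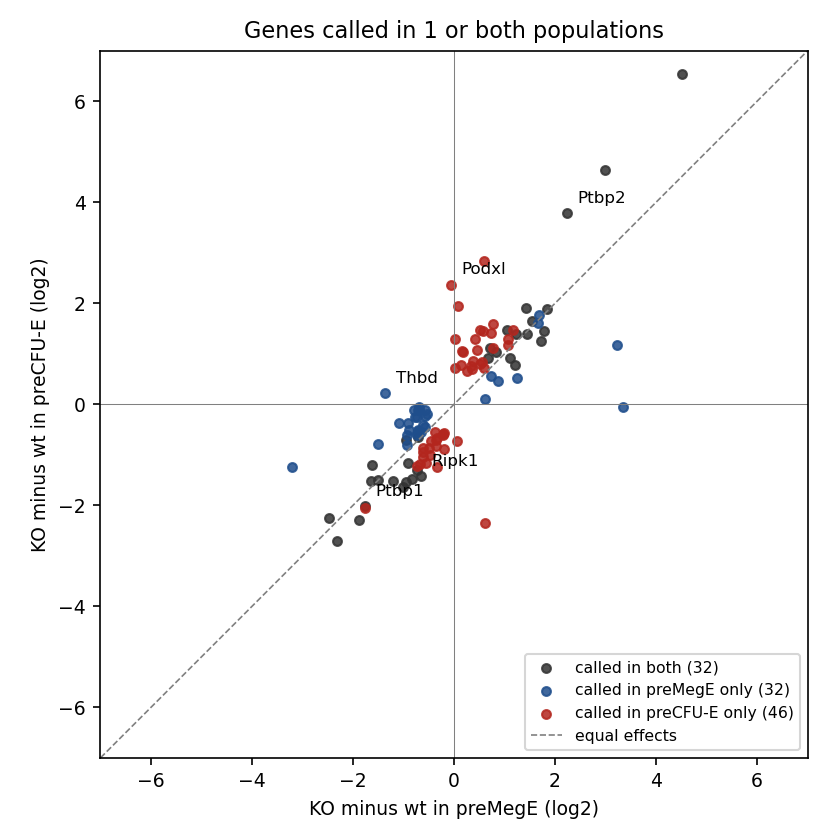
Knockout effect (log2, KO minus wt) in preMegE on the horizontal and in preCFU-E on the vertical axis for the 110 genes called in 1 or both populations; the dashed line marks equal effects. The 32 genes called in both lie in the lower left and upper right corners, and Ptbp2 lies above the line at 2.23 and 3.78.

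Genes called in both populations ranged from equal to unequal responses; the 6 described next were chosen after their values were seen. Dnmt3b, a de novo DNA methyltransferase, fell by 1.499 in preMegE and by 1.49 in preCFU-E on the log2 scale, with a difference of 0.01 (95% interval -0.44 to 0.46) whose sign changed with the settings. Mlkl, the executor of necroptosis, fell by 1.64 and by 1.52, with a difference of 0.13 (95% interval -0.49 to 0.74), also of changing sign. Atat1, a tubulin acetyltransferase, rose by 1.84 and 1.88, with a difference of 0.04 (95% interval -0.65 to 0.73) of changing sign. In all 3 the interval lay within 1 on the log2 scale. Pgm2, a phosphopentomutase, fell by 1.01 and by 1.64, a difference of -0.63 (95% interval -1.03 to -0.23). Malt1, a protease of immune receptor signaling, fell by 0.83 and by 1.48, a difference of -0.66 (95% interval -1.13 to -0.18). Necap2, an endocytosis factor, fell by 1.63 and by 1.21, a difference of 0.43 (95% interval 0.05 to 0.80). The intervals of the last 3 leave out 0, but their edgeR adjusted p over all genes was far above 0.05, as for Pgm2 at 0.859.

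Beyond Ptbp2, 19 genes had the smallest p for the difference among protein-coding and lincRNA genes with a mean log2 CPM of 2 or more. None was called: their edgeR adjusted p ran from 0.519 to 0.859. In 16 of them the effect was higher in preCFU-E and in 3 it was lower, and in 15 the estimated effects had opposite signs in the populations. A choice by the p of the difference favours effects that lie far apart. These counts therefore describe the chosen genes and carry no test. They are described by what their products are known to do, an order chosen after their values were seen.

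Among the surface genes, Podxl, which encodes the sialomucin podocalyxin, was at 12.4, 9.23 and 13.2 CPM in preCFU-E KO against 1.77, 2.49 and 2.52 CPM in preCFU-E wt. In preMegE it was at 1.90, 3.504 and 4.12 CPM in wt and 1.37, 3.77 and 3.97 CPM in KO. The preCFU-E KO libraries stood above all the other 9, and the preMegE groups overlapped. Podxl rose by 2.37 in preCFU-E (edgeR adjusted p 0.00114), and its difference of 2.43 (SE 0.49, 95% interval 1.41 to 3.45) was the greatest of the 20, with an edgeR adjusted p of 0.519. Plxdc2, a membrane protein with a plexin-like domain, was at 13.1 to 18.8 CPM in all preMegE libraries. In preCFU-E it was at 0.87, 0.53 and 1.17 CPM in wt and 3.22, 2.03 and 4.40 CPM in KO, which did not overlap. Its difference was 1.86 (SE 0.39). Thbd, thrombomodulin, was at 9.18, 9.69 and 12.2 CPM in preMegE wt and at 4.10, 3.72 and 4.28 CPM in preMegE KO, without overlap, and at 1.42 to 2.19 CPM in all preCFU-E libraries. Thbd fell by 1.36 in preMegE (edgeR adjusted p 0.00711), with a difference of 1.58 (SE 0.34).

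Coro1a, an actin-binding coronin of blood cells, was at 7.36, 8.62 and 8.72 CPM in preCFU-E wt and 17.2, 12.9 and 10.4 CPM in preCFU-E KO, and at 78.4 to 106 and 70.9 to 83.9 CPM in preMegE wt and KO. Its KO libraries were above wt in preCFU-E and overlapped wt in preMegE (difference 1.04, SE 0.23). Atp2a3, a calcium pump of the endoplasmic reticulum, had 49.6 to 67.5 CPM in preMegE wt, 31.4 to 41.0 in preMegE KO, 4 to 5.63 in preCFU-E wt and 4.22 to 8.61 in preCFU-E KO (difference 1.07, SE 0.29).

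Ripk1 and Gab1 went the other way. Ripk1, a kinase of tumor necrosis factor receptor signaling and cell death, was at 46.0, 48.6 and 56.4 CPM in preMegE wt and 34.7, 28.9 and 31.7 CPM in preMegE KO. In preCFU-E it was at 44.8, 48.9 and 53.1 CPM in wt and 17.5, 17.9 and 19.4 CPM in KO. The wt groups of the populations overlapped and the KO groups did not. Ripk1 fell by 0.66 in preMegE (edgeR adjusted p 0.0148) and by 1.42 in preCFU-E (edgeR adjusted p 1.78e-06), and the difference was -0.76 (SE 0.17, 95% interval -1.12 to -0.39). Gab1, an adaptor of receptor tyrosine kinases, was at 25.4 to 29.6 CPM in preMegE wt and 27.7 to 28.6 in preMegE KO, and at 26.8 to 33.96 CPM in preCFU-E wt and 15.2 to 21.3 in preCFU-E KO. Gab1 fell by 0.73 in preCFU-E (edgeR adjusted p 0.019), with a difference of -0.79 (SE 0.20). The third gene with a negative difference was the unnamed transcript 4732487G21Rik, at -1.10 (SE 0.28).

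Of metabolic genes, Slc2a1, the glucose transporter GLUT1, was at 1.33, 1.24 and 1.90 CPM in preCFU-E wt and 3.53, 2.56 and 3.13 CPM in preCFU-E KO, without overlap, and at 10.2 to 16.2 CPM in preMegE libraries, where the groups overlapped. Its difference was 1.34 (SE 0.32). Gys1, a glycogen synthase, had 11.1 to 13.9 CPM in preMegE wt, 7.14 to 10.1 in preMegE KO, 8.13 to 9.89 in preCFU-E wt and 11.4 to 14.6 in preCFU-E KO, so that KO lay below wt in preMegE and above it in preCFU-E (difference 0.94, SE 0.25). Gmpr, which converts GMP to IMP, differed by 1.27 (SE 0.34), Bcat2, a mitochondrial branched-chain aminotransferase, by 0.78 (SE 0.21), and Mfsd13a, a member of a transporter family, by 0.72 (SE 0.19). Of the remaining genes, Ppic, cyclophilin C, differed by 1.28 (SE 0.33) and Mettl22, a methyltransferase, by 0.90 (SE 0.26). Both rose in preCFU-E, by 1.30 (edgeR adjusted p 0.012) and by 1.05 (edgeR adjusted p 0.00496).

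Hmga1, Cdc20, Cenpm and Troap had a KO mean below wt in preMegE by CPM and by TPM. In preCFU-E their KO mean was above wt by CPM but below wt by TPM. That reversal was not particular to these genes. In preCFU-E, Rpl4, Ldha, Trp53 and Prpf8 also had a KO mean above wt by CPM and below wt by TPM. Others, such as Gys1 and Bcat2, had a KO mean above wt by both measures. TPM, unlike CPM, was not scaled by TMM, and what scaling contributes to the reversal was not tested. Hmga1, an architectural chromatin protein, was at 95.3, 115 and 134 CPM in preMegE wt and 76.2, 54.9 and 85.9 CPM in preMegE KO, and at 183, 231 and 226 CPM in preCFU-E wt and 234, 263 and 304 CPM in preCFU-E KO. By CPM the groups did not overlap in either population and lay in opposite order. By TPM Hmga1 went from 233 ± 36.3 to 220 ± 46.8 in preCFU-E (SD, n = 3), which overlapped. Its difference was 0.99 (SE 0.23), while neither effect alone was called (edgeR adjusted p 0.0847 and 0.706). Cdc20, an activator of the anaphase-promoting complex, had 24.3 to 31.3 CPM in preMegE wt, 19.3 to 19.8 in preMegE KO, 56.8 to 65.1 in preCFU-E wt and 63.3 to 67.6 in preCFU-E KO (difference 0.58, SE 0.16). Cenpm, a kinetochore protein, differed by 0.76 (SE 0.20), and Troap by 0.94 (SE 0.26).

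**Figure D3:**
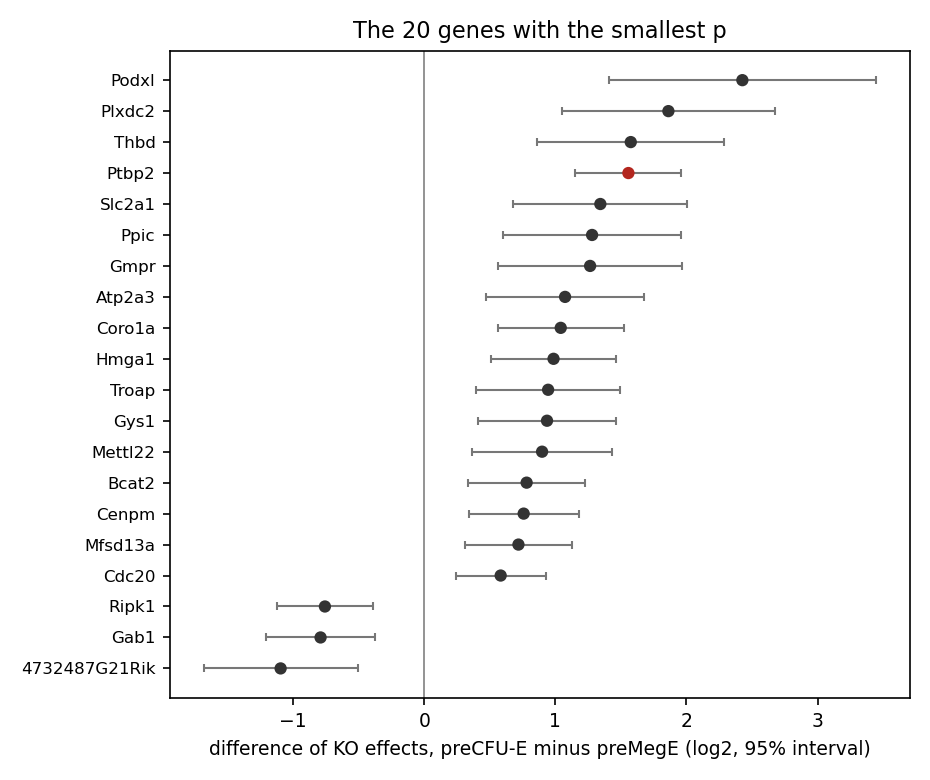
Difference of the knockout effects (log2, preCFU-E minus preMegE) with its 95% interval for the 20 genes with the smallest p; red marks the gene called. Ptbp2 at 1.56 has the narrowest interval among those above 1, and Podxl at 2.43 reaches from 1.41 to 3.45.

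Gene lists were described by the number of members tested, how many passed an unadjusted edgeR p below 0.05, and the median difference. Over all genes, 51.8% of the differences were positive and the median was 0.02. Of 40 lists, 33 had a median above 0, but members of a list share the same 12 libraries and this number was not tested. Recomputed under other settings or without 1 library, 76 of 879 list medians moved by more than the spread between replicates. No list held a called member other than the PTB family with Ptbp2. With a background of 3.06% higher and 2.6% lower, the highest shares past it upward, among lists with 10 or more tested, were in S phase and glycolysis genes. The granulocyte list had the highest share downward, 21.7%.

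All 58 genes of DNA replication and S phase had a positive difference, with a median of 0.33, and 15 of them (25.9%) passed the unadjusted 0.05. The median effect of the knockout was -0.33 in preMegE and 0.04 in preCFU-E. The members past it, chosen after their values were seen, included Uhrf1, which targets DNA methylation to replicated DNA (0.70), Pold1 and Pold2, subunits of DNA polymerase delta (0.68 and 0.70), Dut, a dUTPase (0.54), and Mcm7, Mcm5, Mcm3 and Mcm2 of the replicative helicase (0.56, 0.52, 0.49 and 0.55 on the log2 scale). The most abundant members, Mcm6 and Pcna, differed by 0.32 (SE 0.21) and 0.20 (SE 0.19) and did not pass it. Uhrf1 was at 131.8 ± 29.8 CPM in preMegE wt and 94.8 ± 8.08 CPM in preMegE KO, and at 204 ± 25.01 CPM in preCFU-E wt and 238 ± 15.8 CPM in preCFU-E KO (SD, n = 3). KO lay below wt in preMegE without overlap, and overlapped it in preCFU-E. The preMegE wt libraries were far from alike: the summed level of the list was 3464, 4230 and 4891 CPM in replicates 1, 2 and 3, against 3262, 3721 and 3226 CPM in KO. In preCFU-E it was 5881, 6856 and 7146 CPM in wt and 6650, 6836 and 6954 CPM in KO, which overlapped. The median was 0.18 without preMegE wt replicate 3 and 0.44 without preMegE wt replicate 1. The number past the unadjusted 0.05 was 5 without preMegE wt replicate 3, 6 without preCFU-E wt replicate 1, 7 without preCFU-E KO replicate 3, 10 without preMegE KO replicate 3, 29 without preMegE wt replicate 1, 4 with all 18 libraries, and 26 with the replicate block within genotype. Tyms, thymidylate synthase, was the 1 list member called between KO and wt in preMegE.

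In G2 and mitosis genes, 62 of 67 differences were positive, with a median of 0.21, and 9 (13.4%) passed the unadjusted 0.05 upward and 0 downward. The median effect was -0.23 in preMegE and -0.02 in preCFU-E. Here preMegE KO replicate 3 stood apart, with a summed 3507 CPM against 4644 and 5137 in the other KO libraries and 4710 to 5292 in preMegE wt, and without it the median was 0.06 and the count 3. Without preMegE KO replicate 1 they were 0.35 and 28. With all 18 libraries in the fit the median was 0.22 and 0 members passed by edgeR. Glycolysis genes had a median of 0.32, from -0.25 in preMegE and 0.13 in preCFU-E, and 5 of 29 (17.2%) passed upward and 1 downward. Slc2a1, Eno1, an enolase (0.60), Hk2, a hexokinase (0.72), Pgm1 (0.64) and Pfkfb3 (0.48) were higher, and Pgm2 was lower. The highest members, Gapdh and Ldha, differed by 0.37 (SE 0.20) and 0.34 (SE 0.21), not past it. Without preMegE wt replicate 3 or preCFU-E wt replicate 1 the upward count was 2 each time, and without preMegE wt replicate 1 it was 13.

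Among genes that serve protein synthesis, all 24 tRNA synthetases had positive differences, with a median of 0.27 and 2 (8.33%) past the unadjusted 0.05. The median was 0.11 and the count 0 without preMegE wt replicate 3, the count was 8 without preMegE wt replicate 1, and it was 11 with the replicate block within genotype. Of 106 ribosome biogenesis genes 94 were positive, with a median of 0.15, and the 4 past the unadjusted 0.05 (3.77%) were close to the background. Their median was 0.05 without preCFU-E wt replicate 1 or preMegE wt replicate 3, each with 1 past it. The count was 10 without preMegE wt replicate 1 and 13 with the replicate block within genotype. Of 78 mitochondrial ribosomal proteins 62 were positive, with a median of 0.15 and 6 (7.69%) past it. Without preMegE wt replicate 3 these were 0.06 and 2, the count was also 2 without preCFU-E wt replicate 1 or preCFU-E KO replicate 3, and with all 18 libraries 0 members of any of the 3 lists passed by edgeR. Of the ribosomal proteins themselves, 21 of 51 of the large subunit (median -0.04, of changing sign) and 12 of 45 of the small subunit (median -0.08) were positive, and 0 passed in either direction by edgeR. Rpl4 differed by 0.12 (SE 0.17) and Rps4x by -0.13 (SE 0.19). The nucleolar proteins Npm1 and Ncl differed by 0.04 (SE 0.20) and 0.09 (SE 0.19), with signs that changed under some settings. Ribosomal protein genes share reads with processed pseudogenes, so their counts are uncertain.

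Of the lists of red cell function, heme synthesis, red cell membrane and gas exchange, and erythroid transcription and signaling had medians of 0.06 to 0.14. Iron handling had a median of 0.17, and 0.10 to 0.26 without 1 library. The 16 heme synthesis genes had a median of 0.14 and ran from -0.59 to 0.61, with 12 positive, and the median was 0.07 to 0.25 without 1 library. Red cell membrane and gas exchange genes had a median of 0.12, with 4 of 32 past the unadjusted 0.05, and 0.05 to 0.19 with 2 to 6 past it without 1 library. Erythroid transcription and signaling genes had a median of 0.06, which changed sign without preCFU-E KO replicate 3 or preMegE KO replicate 2, and 0 of 27 past it by edgeR. Gata1 and Klf1, master regulators of the lineage, differed by 0.18 (SE 0.18) and 0.26 (SE 0.22), and Tfrc, the transferrin receptor, by -0.12 (SE 0.26). Of 8 globin genes 4 were measured, at 13.1 CPM or less summed over the list in any library. Their median difference was 0.82, and it ran from -0.09 to 1.42 without 1 library.

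**Figure D4:**
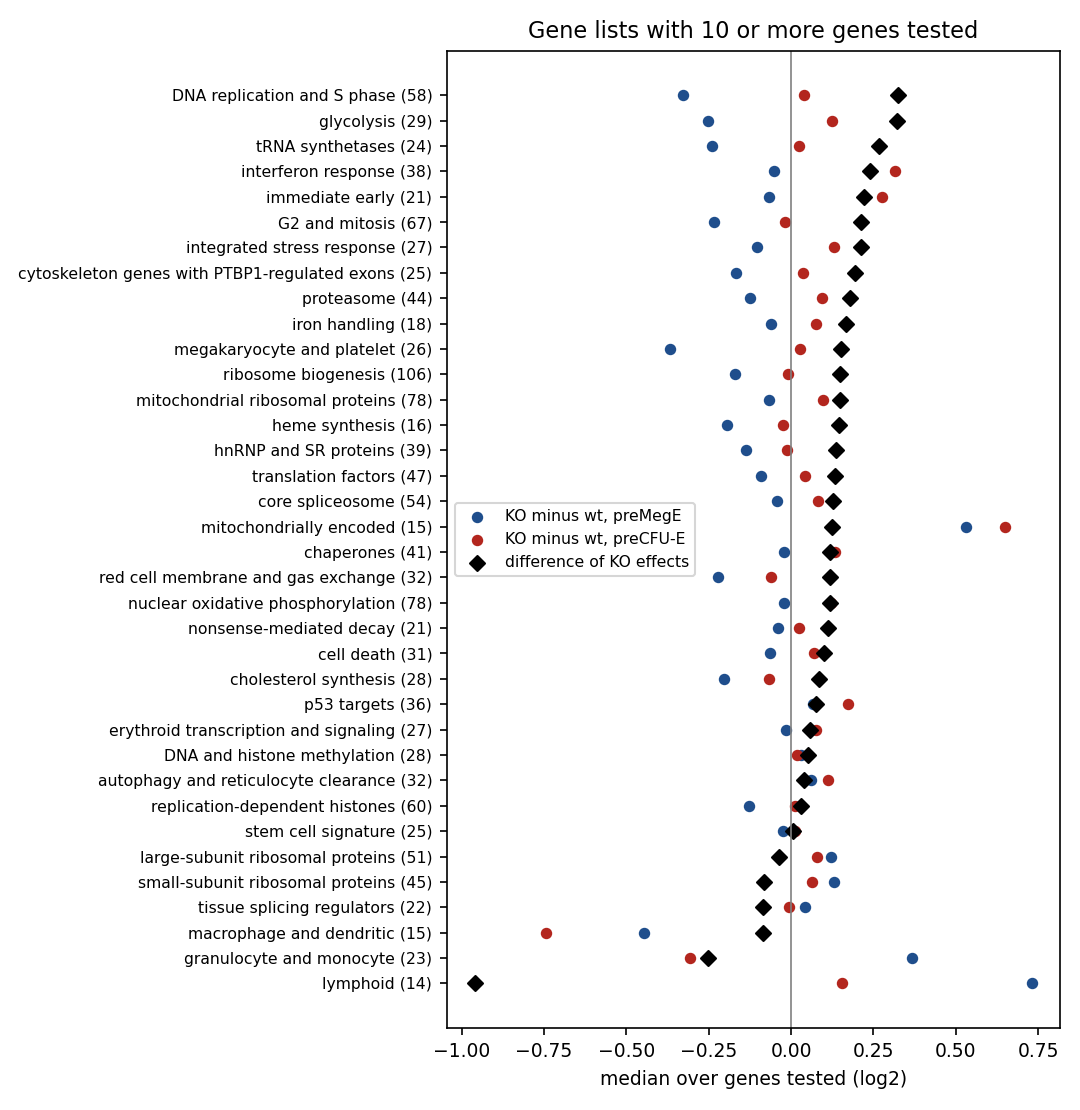
Median log2 value over the tested genes (number in brackets) of the 36 lists with 10 or more genes tested: knockout effect in preMegE (blue), in preCFU-E (red) and their difference (black diamonds). S phase and glycolysis genes have the highest medians of the difference, 0.33 and 0.32. The lymphoid median, -0.96, was 0.12 among genes with a mean CPM of 5 in at least 1 group.

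Markers of other blood cells were described in the same way. In bulk samples fewer cells of a type and less RNA per cell cannot be told apart. Megakaryocyte and platelet genes had a median of 0.15, with 3 of 26 past the unadjusted 0.05 upward, Gp9 (1.00), Itga2b (0.74) and the sparse Gucy1a1, and 1 downward, Vwf (-0.76). The upward count was 0 without preMegE wt replicate 2 and 6 without preCFU-E KO replicate 3, and the median was 0.05 without preCFU-E KO replicate 1 and 0.26 without preCFU-E wt replicate 1. Itga2b was at 65.3, 82.8 and 74.5 CPM in preMegE wt and 46.0, 33.3 and 58.9 CPM in preMegE KO, without overlap, and at 1.36 to 2.48 CPM in all preCFU-E libraries. Granulocyte and monocyte genes had a median of -0.25 and 5 of 23 past it downward, Ltf, Camp, Ly6c2, Ngp and S100a9. These are sparse: Ltf was at 0.40 to 1.86 CPM in preMegE and 0.09 to 1.199 CPM in preCFU-E. The list's summed level was 188 to 231 CPM in preMegE and 24.5 to 48.1 CPM in preCFU-E, wt and KO overlapping in both, and its median ran from -1.86 without preCFU-E KO replicate 1 to 0.11 without preCFU-E wt replicate 1. Macrophage and dendritic genes summed to 307 to 372 CPM in preMegE wt and 169 to 276 CPM in preMegE KO, without overlap, and to 100 to 118 and 85.5 to 120 CPM in preCFU-E wt and KO. Most of that sum was Apoe, apolipoprotein E, at 208, 225 and 296 CPM in preMegE wt and 144, 95.2 and 190 CPM in preMegE KO, while Cd163, a scavenger receptor, was at 32.5 to 41.3 CPM in preMegE with wt and KO overlapping. The median difference of the list was -0.09, and 1 of 15 passed, H2-Ab1, upward. This median changed sign, from -0.60 without preCFU-E KO replicate 2 to 0.24 without preCFU-E KO replicate 3. Lymphoid genes had a median of -0.96 with 0 of 14 past it by edgeR. It was -0.33 without preCFU-E wt replicate 1, -1.55 without preCFU-E KO replicate 1, and 0.12 among genes with a mean CPM of 5 in at least 1 group. Their summed level in preCFU-E was at most 29.65 CPM in wt and 25.03 to 46.8 CPM in KO. The 15 mitochondrially encoded genes had a median of 0.13, which ran from -0.36 without preMegE wt replicate 1 to 0.48 without preCFU-E KO replicate 3, and they summed to values ranging from 142800 to 382600 CPM in preCFU-E KO alone. What these levels contribute to the differences above was not tested.

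Inclusion of cassette exons gave a second view of the same comparison. Of 6199 exons tested, 4 (0.0645%) were called in the difference at a limma adjusted p below 0.05 and 10 percentage points or more, in Araf, Tceanc2, Meis1 and Hacl1. With a block for the replicate number within genotype, which pairs the populations, none of the 6199 was called. Each of these 4 exons then had a limma adjusted p of 0.313. Without the block, 344 of the 6199 passed an unadjusted limma p below 0.05. Between KO and wt, 64 exons (1.03%) were called in preMegE and 101 (1.63%) in preCFU-E. Of these 43 were called in both, 67.2% and 42.6% of the lists, 42 of them in the same direction, with Hacl1 as the exception. The 43 exons lie in 33 genes and hold 40 distinct sets of values, since exons of 1 gene can rest on the same transcripts. In 33 of the 43, and in 30 of the 40, the change was larger in preCFU-E, against 41.2% of all 6199 exons, with a median size of 25.7 points in preMegE and 30.5 points in preCFU-E.

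Hacl1, a peroxisomal lyase of fatty acid oxidation, was the exon that turned in opposite directions. The 81-base coding exon at chr14:31634199-31634279 (minus strand, GRCm38) had 57.1, 72.7 and 43.0 percent inclusion in preMegE wt and 97.2, 92.9 and 93.0 in preMegE KO, but 73.1, 78.0 and 91.0 in preCFU-E wt and 34.7, 34.7 and 28.0 in preCFU-E KO. No wt and KO groups overlapped. The change was 36.8 points in preMegE and -48.2 points in preCFU-E, both called, and the difference was -85 points (limma adjusted p 0.0215). The transcripts behind it held 2.72 to 9.43 TPM per library. The exon keeps the reading frame, and its sequence is shown in capitals between 12 bases of the neighbouring exons.
Hacl1 exon: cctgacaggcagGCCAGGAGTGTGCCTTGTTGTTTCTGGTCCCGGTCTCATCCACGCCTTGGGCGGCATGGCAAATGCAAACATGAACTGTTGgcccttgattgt

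The other called exons differed by an effect that reached 0 or 100 percent in 1 population. Araf, a RAF kinase, has a 45-base exon at chrX:20849112-20849156 (plus strand). Araf-204 is the 1 annotated transcript counted as containing this exon, which does not lie wholly within its coding sequence. Its inclusion was 18.03, 19.1 and 17.1 percent in preMegE wt and 0 in all 3 preMegE KO libraries, and 19.4, 29.3 and 18.6 percent in preCFU-E wt and 19.5, 28.2 and 21.7 percent in preCFU-E KO. PreMegE KO alone was at 0, and the preCFU-E groups overlapped (difference 18.8 points, limma adjusted p 0.00589). Tceanc2, which has a domain of elongation factors, has a 142-base coding exon at chr4:107165548-107165689 (minus strand). It was at 54.5, 81.4 and 60.1 percent in preMegE wt and 100 in all 3 preMegE KO libraries, and at 40.4 to 66.0 and 35.4 to 45.4 percent in preCFU-E wt and KO (difference -43.5 points, limma adjusted p 0.0205). Meis1, a homeodomain transcription factor of early blood cells, has a 146-base coding exon at chr11:18941659-18941804 (minus strand). It was at 75.3 to 85.2 percent in preCFU-E wt and 100 in all 3 preCFU-E KO libraries, and at 77.3 to 85.8 and 82.6 to 90.8 percent in preMegE wt and KO (difference 15.4 points, limma adjusted p 0.0205). In preCFU-E the Meis1 value rests on 1.18 to 2.84 TPM. The exon met the minimum mean of 5 TPM only through preMegE, at 48.9 to 75.3 TPM, while its call comes from preCFU-E KO. Values of exactly 0 or 100 come from the assignment of reads to transcripts. With a logit offset of 0.05 in place of 0.01, the limma adjusted p became 0.0529 for Araf, 0.0853 for Tceanc2 and 0.17 for Meis1. The count of called exons was 1 without preCFU-E KO replicate 1, 2 without preCFU-E wt replicate 2 or preCFU-E KO replicate 3, and 23 without preMegE KO replicate 3.

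Exons that changed the same way in both populations, though further in preCFU-E, included those of Ctnnd1, Reep6 and Tpm1, which were chosen after their values were seen. Ctnnd1, p120 catenin, has an 18-base coding exon at chr2:84612532-84612549 (minus strand). Its inclusion was 7.86, 2.74 and 8.11 percent in preMegE wt, 18.95, 20.2 and 19.95 in preMegE KO, 4.22, 4.98 and 4.74 in preCFU-E wt, and 60.7, 54.3 and 56.0 in preCFU-E KO. Starting from similar wt values, the 3 preCFU-E KO libraries lay far above the 3 preMegE KO libraries. The changes were 13.5 and 52.3 points, and the difference of 38.9 points had an unadjusted limma p of 0.00048 and an adjusted p of 0.255. Reep6, of a family that shapes the endoplasmic reticulum, has an 81-base coding exon at chr10:80334713-80334793 (plus strand). It went from 1.61 to 2.74 percent in preMegE wt to 37.2 to 56.0 in preMegE KO, and from 1.30 to 4.60 percent in preCFU-E wt to 80.5 to 92.1 in preCFU-E KO, a difference of 40.7 points (limma adjusted p 0.349). The transcripts behind the Reep6 exon held 3.27 to 7.63 TPM in preMegE libraries and 15.7 to 25.7 TPM in preCFU-E libraries.

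Tpm1, a tropomyosin of the actin cytoskeleton, switched between alternative 76-base exons, at chr9:67032466-67032541 and chr9:67031951-67032026 (minus strand), which take the same place in the transcript. The first fell from 77.7 to 78.8 percent in preMegE wt to 7.61 to 11.6 in preMegE KO, and from 83.7 to 85.9 percent in preCFU-E wt to 3.72 to 6.15 in preCFU-E KO. The other rose from 13.3 to 18.3 percent to 73.5 to 87.2, and from 10.98 to 14.01 percent to 93.3 to 93.9. All KO libraries lay on the far side of all wt libraries, and preCFU-E KO went further than preMegE KO, with differences of -12.3 and 15.9 points (limma adjusted p 0.335 and 0.381). The exons hold the same base at 43 of 76 positions (56.6%) and are joined to the same 12 bases on either side.
Tpm1 exon lost in KO: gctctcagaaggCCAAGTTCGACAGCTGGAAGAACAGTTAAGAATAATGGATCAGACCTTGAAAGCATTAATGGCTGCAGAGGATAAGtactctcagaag
Tpm1 exon gained in KO: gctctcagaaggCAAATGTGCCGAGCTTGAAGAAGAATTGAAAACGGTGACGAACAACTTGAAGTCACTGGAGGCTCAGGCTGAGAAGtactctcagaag
Ctnnd1 exon gained in KO: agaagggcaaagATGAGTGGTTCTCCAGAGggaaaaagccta

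**Figure D5:**
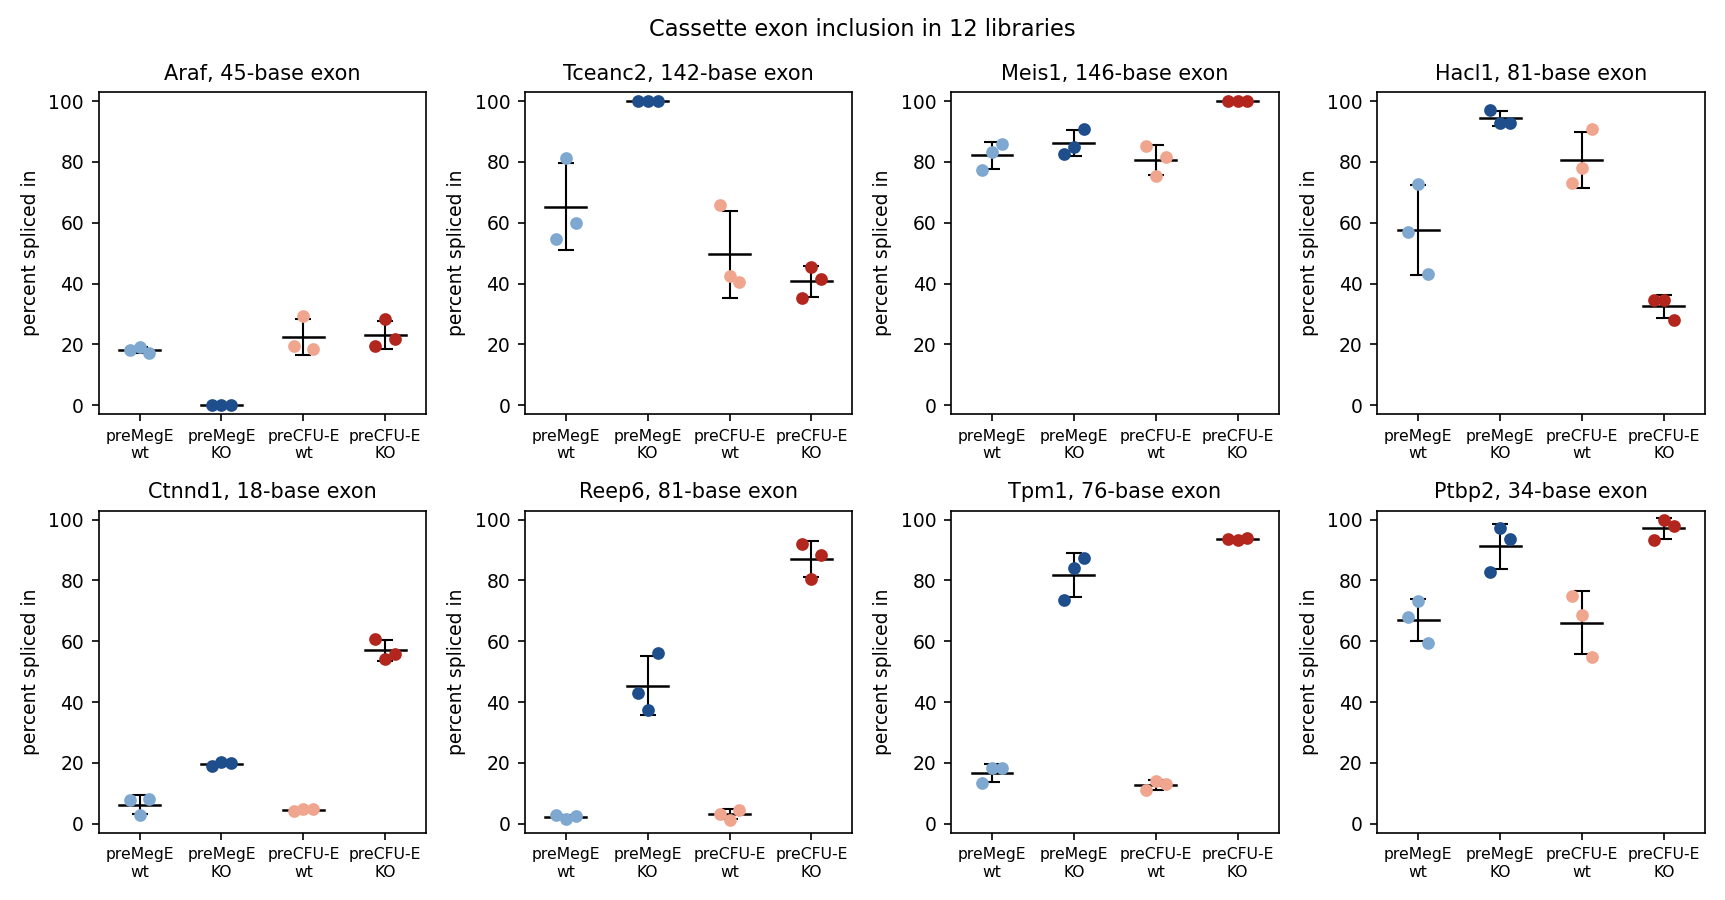
Percent spliced in (linear axis, 0 to 100) of 8 cassette exons in each of the 12 libraries; points are libraries, bars the group mean ± SD (n = 3), and Tpm1 is the exon gained in KO. The upper panels are the 4 called exons, with Hacl1 up in preMegE KO and down in preCFU-E KO; in the lower panels KO lies above wt in both populations, with Ctnnd1 at 18.95 to 20.2 in preMegE KO and 54.3 to 60.7 in preCFU-E KO.

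Gene counts were tested for the same genes. The log2 difference of the knockout effect was 0.06 for Hacl1 (SE 0.28), 0.07 for Ctnnd1 (SE 0.15), 0.10 for Araf (SE 0.20), 0.11 for Meis1 (SE 0.21), 0.02 for Tceanc2 (SE 0.18), -0.29 for Tpm1 (SE 0.19) and 0.40 for Reep6 (SE 0.25), and none was called by edgeR.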

How the data were processed

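Per the labels, total RNA was amplified and made into libraries with NuGEN kits. The deposited files hold, for each transcript, an estimated count of reads and a TPM, in the format of Salmon (0.12.0, builds mm10 and GRCm38.p6, per the submitters' processing notes), which divides a read that fits several transcripts. Of 136288 transcripts, 136176 matched GENCODE M21 by identifier. Estimated counts were summed per gene, rounded and tested with edgeR 4.0.16 (quasi-likelihood, TMM, filterByExpr, 4 group means, 8 residual degrees of freedom), with Benjamini-Hochberg adjustment over 17159 genes. CPM are on TMM-scaled library sizes. Cassette exons, from transcript TPM, were tested with limma 3.58.1 on the logit scale (offset 0.01) for exons whose transcripts averaged 5 TPM or more and whose mean inclusion was 2 to 98 percent. Exon sequences are those of GENCODE M21 transcripts. Scripts were tested on simulated data.

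The named genes were the PTB family, the 20 smallest p for the difference (protein-coding or lincRNA, mean log2 CPM of at least 2), the 2 most abundant members of a list, and sorting genes. Some list members are not reported here. The members and lists were chosen with earlier results of these data known. Replicates differed by more than sampling noise. P-values measure the spread between the samples, which may be technical. Same-numbered libraries of a genotype deviated together across populations (correlation 0.14 to 0.53 in 6 of 6 pairs, against -0.49 to -0.02 for other numbers). The deviations are from group means, so positive values for the same number push those for other numbers down. Libraries that differed in both population and genotype reached 0.26, above the lowest of the same-numbered pairs. The numbers may pair preMegE with preCFU-E, which the labels do not state. Of the same number, wt and KO libraries of a population ran from -0.17 to 0.23, which overlaps the range of the same-numbered pairs across populations. For replicate 1 the value was 0.23 in preMegE and 0.18 in preCFU-E.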

Additional observations from a re-analysis of the deposited data

Results flagged for a closer look

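In 5 measurements the difference between the populations was itself tested and called. For Ptbp2 the knockout effect was 1.56 higher on the log2 scale in preCFU-E. For the cassette exons the knockout effect in preCFU-E minus that in preMegE was 18.8 percentage points in Araf, -43.5 in Tceanc2, 15.4 in Meis1 and -85 in Hacl1, of which none was called with the replicate block within genotype. The Meis1 exon met the minimum mean TPM only through preMegE.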

How the results depend on the processing

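The number of genes called in the difference, 1, was 8 with DESeq2, 89 without the filter on low counts, and 0 with all 18 libraries or length-scaled counts, and 1 to 2 when each library was left out. The 64 genes of preMegE became 237 with DESeq2, 97 with limma-voom, 496 without the filter, 13 with all 18 libraries, 32 with length-scaled counts and 172 with the replicate block, and 25 to 111 without 1 library. The 78 genes of preCFU-E became 193, 63, 264, 33, 41 and 122 under the same settings, and 42 to 138 without 1 library. With the replicate block or the block within genotype, Ptbp2 stayed the 1 gene called. The 4 exons became 1 with an offset of 0.05, 2 with a minimum of 10 TPM, 1 with the replicate block, 0 with the block within genotype, chosen after seeing the data, and 1 to 23 without 1 library. Requiring 2 TPM in every library, also chosen after seeing the data, left 3, and the Meis1 exon was then no longer tested. The cause of these changes was not tested. Of 923 values for 42 named genes under 10 settings and 12 fits without 1 library, 859 kept direction and call and 51 changed sign, all in 11 genes with small differences. Under limma-voom Dnmt3b was -0.018 and Atat1 -0.023. With a mean CPM of 5 in at least 1 group Ptbp3 was -0.043, Npm1 -0.024, Dnmt3b -0.061 and Atat1 -0.035. With length-scaled counts Rps3a1 was 0.014, Dnmt3b -0.39 and Mlkl -0.19. With protein-coding genes alone Ptbp3 was -0.033, Npm1 -0.013, Dnmt3b -0.047 and Atat1 -0.019. With the block within genotype Dnmt3b was -0.004915. Without 1 library at a time the ranges were -0.066 to 0.094 for Ptbp3, -0.26 to 0.067 for Cpox, -0.12 to 0.25 for Mki67, -0.17 to 0.052 for Rpl10, -0.22 to 0.0024 for Rps4x, -0.13 to 0.081 for Rps3a1, -0.073 to 0.17 for Npm1, -0.045 to 0.20 for Ncl, -0.10 to 0.16 for Dnmt3b, -0.029 to 0.36 for Mlkl and -0.26 to 0.22 for Atat1. For genes with a mean log2 CPM of 2 or more, the median 95% interval reached 0.44 to either side, and how depth or the number of libraries bears on the calls was not tested.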
